A study of Mus musculus with 13 samples.

Results

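The genes that build the autophagosome and select its cargo were examined in C2C12 myotubes treated with palmitoylethanolamide (PEA). The set comprised 39 genes listed by symbol, with no threshold on expression. All 39 were found among the 16382 genes of the deposited tables, and all 39 had enough counts to be among the 13142 genes tested. C2C12 is a mouse myoblast line that fuses into multinucleated myotubes, and PEA is an endogenous lipid amide of palmitic acid. On day 8 of differentiation, wild-type C2C12 myotubes were given either 10 μM PEA or vehicle alone (DMSO, the CON group) for 24 h before RNA extraction. The data comprised 12 RNA-seq libraries, 6 CON and 6 PEA, and the libraries of both groups shared the cell line, the day and the DMSO. The experiment was repeated 3 times with wells in duplicate, but the repeat of each library is not labelled, so p-values measure only the spread between these libraries. Wells of the same repeat are not independent, so with 6 libraries a group from 3 repeats the p-values and SDs may be too small.

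Autophagy delivers cytoplasm, protein aggregates and worn organelles to the lysosome inside a double membrane, the autophagosome. A kinase complex around ULK1 starts the process, a lipid kinase complex marks the site, membrane is supplied by vesicles and lipid transfer proteins, and a pair of conjugation systems attaches proteins of the LC3 and GABARAP families to the growing membrane. Cargo receptors bind LC3 or GABARAP on one side and their cargo on the other, and in skeletal muscle the pathway is known for its part in protein turnover, mitochondrial quality and the response to fasting and exercise. Much of its control lies in protein modification, and messenger RNA levels do not measure how much autophagy takes place.

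Libraries held between 12354845 and 50397444 estimated counts, and CON replicate 1 stood apart as the deepest. Single members held between 108 counts (Atg10) and 51834 counts (Sqstm1) in a library. All 12 myotube markers were measured, and all had estimates below 0 in PEA, of which 4 (Myh8, Tnnt3, Tnni2 and Actn2) were lower at an adjusted p below 0.05, beside 4.74% of all genes tested. Their summed level ran from 142185 to 214739 normalized counts in CON and from 148681 to 167162 in PEA, and the low end in CON was replicate 3 alone. Without it the CON libraries started at 167163 (replicate 6), level with the highest PEA library at 167162 (replicate 1). Of 6 myoblast and cell cycle markers, 3 (Mki67, Top2a and Ccnb1) were higher in PEA, beside 6.31% of all genes, with sums of 3230 to 5999 in CON and 5481 to 6451 in PEA. The overlap of these sums came from CON replicate 2 alone, the other CON libraries reaching at most 4689. The 3 called genes mark the cell cycle. The myoblast markers Pax7, Myf5 and Myod1 were not called (log2 fold changes -0.02, 0.09 and -0.10, adjusted p 0.947, 0.580 and 0.416 by edgeR). Of 10 markers of other cell types, 5 were in the table with sums of 68.0 to 154 in CON and 85.1 to 139 in PEA, most of which came from the macrophage marker Cd68 (mean 100.0 in CON and 96.4 in PEA). The epithelial marker Krt8 averaged 13.0 and 3.90, and the leukocyte marker Ptprc and the endothelial markers Pecam1 and Cdh5 had means under 5. The culture thus carried the markers of its label, and the part of the called markers in the results below was not tested. In bulk RNA, fewer cells of a type and less RNA per cell cannot be told apart.

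Of the 39 members, 3 were called, meaning an adjusted p below 0.05 in edgeR over all genes tested: Map1lc3a and Gabarap, which encode proteins of the membrane-bound LC3 and GABARAP families, fell, and Pik3r4, which encodes the regulatory subunit of the lipid kinase complex, rose. That is 7.69% of the members, beside 11% of all genes tested. By direction, 1 member (2.56%) was higher beside a background of 6.31%, and 2 (5.13%) were lower beside 4.74%, so these shares lay below or near the background and are no result about the set. At an unadjusted p below 0.05 there were 12 members (5 higher and 7 lower), 30.8% of the set beside 27.4% of all genes. DESeq2 called 4 members, the additional gene being Atg4a. The edgeR count was 8 without CON replicate 2, 5 without PEA replicate 1 and 1 (Map1lc3a) without PEA replicate 5. The libraries of the groups did not overlap for 2 members, Map1lc3a and Gabarap, 5.13% of the set beside 4.34% of all genes.

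The members' fold changes were small. The median size of the log2 fold change, regardless of sign, was 0.0576 over the members and 0.110 over all genes tested, and the signed median over the members was 0.00, with 19 estimates above 0, 19 below and Tax1bp1 at 0.00. The median half-width of the 95% interval was 0.112 for the members and 0.164 for all genes on the same scale. The interval lay within a 1.2-fold change in either direction for 31 of the 39 members and within 1.5-fold for all 39. These bounds were picked once the values were known and serve as description. The members' summed level was 86441 to 88065 normalized counts in CON and 83233 to 89167 in PEA, so the total for the set was alike in the groups. The plot of fold changes by role shows that the called genes sat in only 2 of the 7 roles, a placement that was not tested.

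**Figure D1:**
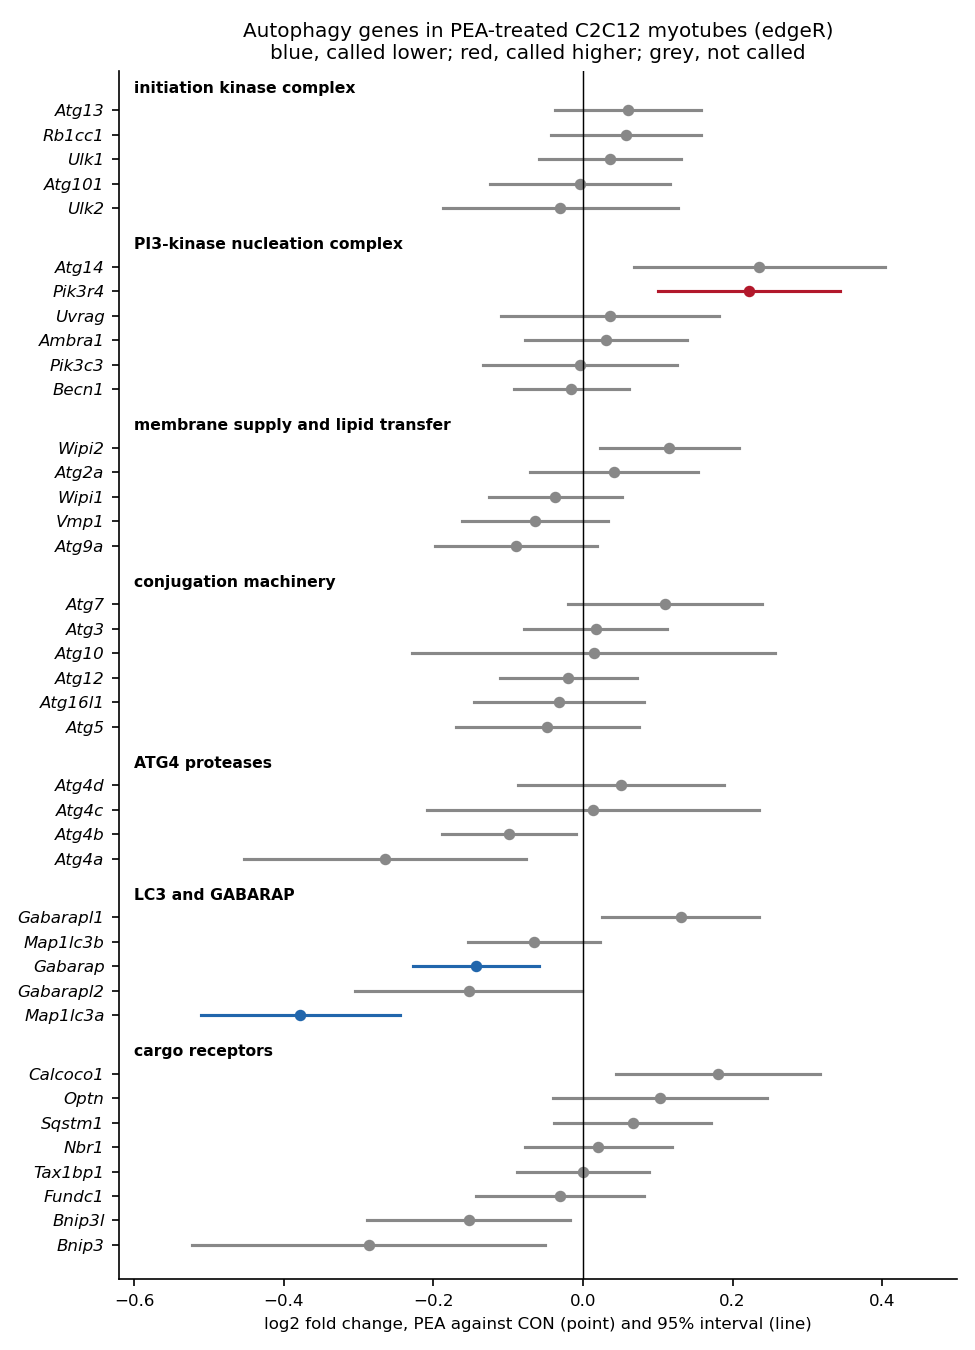
Log2 fold change of each of the 39 autophagy genes in PEA against CON (points, horizontal axis) with 95% intervals from edgeR (lines), grouped by role on the vertical axis, 6 libraries a group. Map1lc3a at -0.38 and Gabarap at -0.14 (blue) lie below 0, Pik3r4 at 0.22 (red) lies above 0, and the other points are grey because they were not called.

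The LC3 and GABARAP genes encode the small ubiquitin-like proteins that are coupled to lipid on the autophagosome membrane, and both decreases among the members fell in this group. Of its 5 members, 2 fell (Map1lc3a and Gabarap), none rose, and 4 had an unadjusted p below 0.05 (3 lower and 1 higher), beside 4.74% of all genes called lower and 27.4% at that unadjusted p. The median log2 fold change of the group was -0.14. Map1lc3a (ENSMUSG00000027602, GRCm39 chr2:155118217-155119998, plus strand) encodes LC3A. Its normalized counts had a lowest value of 3594, a median of 4047 and a highest value of 4630 in CON, and 2734, 3168 and 3364 in PEA. Every PEA library lay under every CON library. Mean levels were 4082 ± 374 in CON and 3136 ± 232 in PEA (SD, n = 6 each), and the log2 fold change was -0.38 (SE 0.063, 95% interval -0.51 to -0.24, adjusted p = 0.00185 by edgeR), a change of -23.0%. The decrease was called under each of 8 other fits (adjusted p 1.04e-06 to 0.00356) and with each library left out in turn (5.9e-04 to 0.00754).

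Gabarap (ENSMUSG00000018567, GRCm39 chr11:69881888-69886109, plus strand) encodes the founding GABARAP protein and was the most abundant member per kilobase of annotated exon. Its normalized counts ran from 8166 through a median of 8491 to 8811 in CON, and from 7168 through 7752 to 7942 in PEA. The groups did not overlap here either, although the shift was small. Mean levels were 8492 ± 261 and 7679 ± 284 (SD, n = 6 each), with a log2 fold change of -0.14 (SE 0.040, 95% interval -0.23 to -0.06, adjusted p = 0.0312 by edgeR). This call was near the threshold and was lost without CON replicate 3, CON replicate 5, PEA replicate 2, PEA replicate 5 or PEA replicate 6 (adjusted p 0.0514, 0.0580, 0.0723, 0.0564 and 0.0740), while the log2 fold change stayed between -0.15 and -0.12 over the libraries left out. It held in 7 of 8 other fits and was lost in edgeR with a block for replicate number (adjusted p = 0.0561). In the annotation no gene on the opposite strand shares exon sequence with Map1lc3a or Gabarap, while the third called member, Pik3r4, shares 133 bases with Col6a6, which was not analysed here.

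The promoter window of Gabarap is shown because it belongs to a called member and holds a short motif, ACGTG, the core of the element bound by hypoxia-inducible factors. It covers 250 bases before to 50 bases after the gene start in RefSeq (GRCm38.p6, chr11:69991120-69991419, plus strand), an older build than that of the counts. The capitals mark the motif, which reads CACGT here because the match is on the reverse strand, 108 bases before the gene start.
Gabarap promoter: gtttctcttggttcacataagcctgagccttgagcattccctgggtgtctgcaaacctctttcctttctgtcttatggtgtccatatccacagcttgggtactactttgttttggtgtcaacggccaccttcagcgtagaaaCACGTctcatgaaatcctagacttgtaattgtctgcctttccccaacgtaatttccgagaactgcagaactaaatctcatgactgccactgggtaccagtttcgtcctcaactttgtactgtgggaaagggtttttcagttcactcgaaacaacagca
The match is a description of the letters, not evidence of a bound factor. RefSeq's table held no window for Map1lc3a.

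The remaining genes of this group did not pass the test and did not share a direction. Map1lc3b encodes LC3B, the protein whose lipid-bound form is commonly blotted as a mark of autophagosomes. It ran from 3500 through 3686 to 3916 normalized counts in CON and from 3392 through 3493 to 3719 in PEA, groups that overlapped widely (log2 fold change -0.07, 95% interval -0.15 to 0.02, adjusted p = 0.338). Gabarapl1, a GABARAP paralog that responds to FoxO factors in muscle, ran from 2439 through 2535 to 2892 in CON and from 2720 through 2839 to 2996 in PEA. All 6 PEA libraries were above the CON median, yet the groups overlapped (log2 fold change 0.13, 95% interval 0.03 to 0.24, adjusted p = 0.0965). Gabarapl1 was called by edgeR without CON replicate 2 (adjusted p = 0.0245). Gabarapl2 encodes GATE-16, a paralog that also acts in Golgi traffic, and its range of 1062 to 1386 in CON overlapped that of 959 to 1183 in PEA (log2 fold change -0.15, 95% interval -0.30 to 0.00, adjusted p = 0.179).

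Per kilobase of exon, the family was made mostly of its GABARAP and LC3A messages. Gabarap supplied 45.2 ± 1.83% of the summed level per kilobase in CON and 46.8 ± 1.68% in PEA (SD, n = 6 each). Map1lc3a supplied 37.2 ± 2.04% in CON and 32.8 ± 2.01% in PEA, whereas Gabarapl1 went from 8.46 ± 0.42% to 10.6 ± 0.54%. Map1lc3b made up 5.84 ± 0.12% and 6.39 ± 0.25%, and Gabarapl2 made up 3.31 ± 0.39% and 3.40 ± 0.24%. The sum itself was 8329 ± 360 normalized counts per kilobase in CON and 7266 ± 183 in PEA. These shares are given as a description, without a test, and they rest on the annotated exon length, which counts every exon of a gene whether or not the myotubes use it.

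The balance between the LC3 genes was tested directly, as the log2 ratio of normalized counts within each library. The ratio of Map1lc3b to Map1lc3a ran from 0.828 through a median of 0.917 to 1.00 in CON and from 1.02 through 1.11 to 1.26 in PEA. No PEA library overlapped a CON library. The mean log2 ratio was -0.14 ± 0.10 in CON and 0.17 ± 0.11 in PEA, a difference of 0.31 (two-sided exact permutation test over 924 assignments, p = 0.00216, the smallest this test can give, adjusted p = 0.0108 over 5 ratios). This test shares its values with the decrease of Map1lc3a and adds that Map1lc3b did not fall to the same extent. With medians in place of means the difference was 0.28 and its adjusted p by exact permutation was 0.0649.

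The other 4 ratios did not pass. Gabarapl1 to Gabarapl2 shifted by 0.29 on the log2 scale, from 1.12 ± 0.20 to 1.41 ± 0.14, with overlapping libraries (exact permutation p = 0.0216, adjusted p = 0.0541). It passed when CON replicate 2 was left out (0.35, adjusted p by exact permutation 0.0108) or PEA replicate 1 was left out (0.32, 0.0433). Ulk1 to Ulk2 differed by 0.06 (p = 0.506, exact permutation), Bnip3 to Bnip3l by -0.12 (p = 0.149, exact permutation) and Sqstm1 to Nbr1 by 0.04 (p = 0.411, exact permutation). The pairs of kinases, mitochondrial receptors and aggregate receptors therefore showed no shift in balance larger than the spread between libraries.

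**Figure D2:**
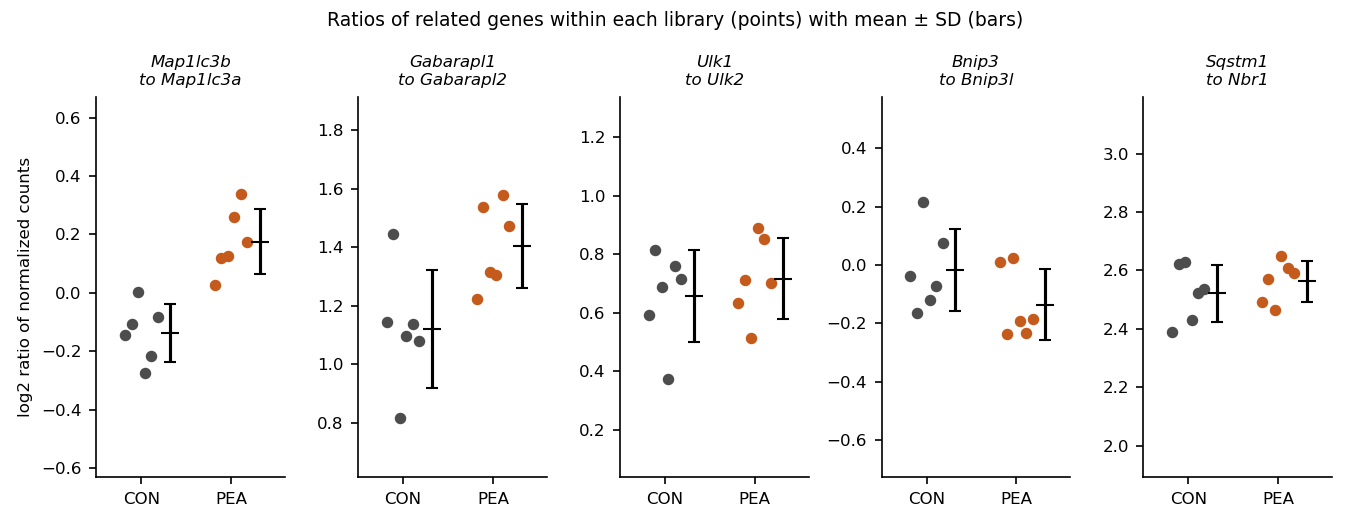
Log2 ratio of normalized counts of 5 pairs of related genes (vertical axes, each spanning the same range of log2 units) in each CON (grey) and PEA (orange) library, with mean ± SD as bars. The ratio of Map1lc3b to Map1lc3a moves from -0.14 to 0.17 without overlap of the points, and the points of the other 4 ratios overlap between the groups.

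The nucleation complex makes phosphatidylinositol 3-phosphate, the lipid that marks where the autophagosome forms, and it held the only member that rose. Pik3r4 (ENSMUSG00000032571, GRCm39 chr9:105520160-105564856, plus strand) encodes VPS15, the pseudokinase that holds the catalytic subunit in place. Its normalized counts had a lowest value of 547, a median of 583 and a highest value of 621 in CON, and 601, 696 and 720 in PEA. PEA replicate 6, at 601, was the only PEA library inside the CON range, and 5 PEA libraries lay above it. Mean levels were 584 ± 28.4 and 681 ± 43.5 (SD, n = 6 each), with a log2 fold change of 0.22 (SE 0.058, 95% interval 0.10 to 0.34, adjusted p = 0.0221 by edgeR). The call held in all 8 other fits and was lost without CON replicate 6 (adjusted p = 0.0540) or PEA replicate 5 (adjusted p = 0.0511).

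The window around the start of Pik3r4 is shown as that of the only member that rose. It comes from RefSeq (GRCm38.p6, chr9:105642745-105643044, plus strand), and the capitals mark ACGTG on the forward strand, 178 bases before the gene start.
Pik3r4 promoter: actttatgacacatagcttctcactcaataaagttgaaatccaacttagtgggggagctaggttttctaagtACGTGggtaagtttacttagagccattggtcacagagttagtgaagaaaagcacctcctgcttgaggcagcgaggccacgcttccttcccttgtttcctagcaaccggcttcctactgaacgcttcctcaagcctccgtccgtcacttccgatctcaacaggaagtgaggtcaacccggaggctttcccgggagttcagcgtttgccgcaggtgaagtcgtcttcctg
The same motif stands in the window of a gene that fell and of a gene that rose. ACGTG occurred in 19.6% of all windows and 39.5% of member windows, and its part in either change was not tested.

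Of the other nucleation genes none was called by edgeR over all libraries. Atg14 encodes the subunit that directs the complex to autophagy. It had the largest estimate of the group, from 319 through 351 to 417 normalized counts in CON and from 380 through 419 to 469 in PEA. All 6 PEA libraries lay above the CON median and 3 lay above the CON maximum (log2 fold change 0.24, 95% interval 0.07 to 0.40, adjusted p = 0.0642). It was called by limma-voom (adjusted p = 0.0456), and by edgeR without CON replicate 2 (0.0228) or PEA replicate 1 (0.0467). Becn1 encodes Beclin 1, the scaffold of the complex, and had the highest level of the group per kilobase. It ran from 2509 through 2580 to 2667 in CON and from 2478 through 2551 to 2635 in PEA, with coefficients of variation of 2.10% and 2.50% (log2 fold change -0.02, 95% interval -0.09 to 0.06). Pik3c3, the catalytic subunit VPS34, had a log2 fold change of -0.00 (95% interval -0.13 to 0.13), so that the kinase and its partner VPS15 were not called together. Uvrag, the alternative subunit of endosomal complexes, was at 0.04 and Ambra1, a Beclin 1 regulator, at 0.03.

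The initiation kinase complex receives signals of nutrient and energy status, and none of its 5 members passed even without adjustment. Atg101, which stabilizes the complex, had the highest level per kilobase of the group. It ran from 1055 through 1064 to 1272 normalized counts in CON and from 1032 through 1087 to 1209 in PEA (log2 fold change -0.00, 95% interval -0.12 to 0.12). Atg13, the regulatory subunit, had the largest estimate, from 1211 through 1293 to 1377 in CON and from 1302 through 1342 to 1416 in PEA. The ranges overlapped, although all 6 PEA libraries were above the CON median (log2 fold change 0.06, 95% interval -0.04 to 0.16, adjusted p = 0.434). The kinases Ulk1 (0.04, 95% interval -0.06 to 0.13) and Ulk2 (-0.03, 95% interval -0.19 to 0.13) and the scaffold Rb1cc1, also known as FIP200 (0.06, 95% interval -0.04 to 0.16), had intervals on both sides of 0. The exons of Atg13 share 3412 bases with Arhgap1 on the opposite strand, those of Becn1 share 3227 bases with Cntd1, those of the protease gene Atg4d share 2452 bases with Kri1, and those of the cargo receptor gene Sqstm1 share 1412 bases with Mrnip. Whether the counting used strand is not given in the sources used here, and reads from such pairs may not be told apart.

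Membrane supply and lipid transfer were likewise without a call among 5 genes. Vmp1, a lipid scramblase of the endoplasmic reticulum, and Wipi1, a protein that binds the lipid made by the nucleation complex, were at 475 and 467 normalized counts per kilobase of annotated exon in CON. Per kilobase of the longest transcript they were further apart, at 862 and 533 in CON. Vmp1 ran from 3056 through 3289 to 3605 normalized counts in CON and from 3008 through 3152 to 3294 in PEA (log2 fold change -0.06, 95% interval -0.16 to 0.03). Wipi2, which recruits the conjugation machinery, had the largest estimate and ran from 2083 through 2202 to 2268 in CON and from 2134 through 2408 to 2474 in PEA. Its 5 PEA libraries other than replicate 1 lay above all CON libraries, and the log2 fold change was 0.12 (95% interval 0.02 to 0.21, adjusted p = 0.0960). Without PEA replicate 1 it was 0.14, with an adjusted p of 0.0346. Atg9a, the membrane protein of the seed vesicles, was at -0.09 (95% interval -0.20 to 0.02), Atg2a, a lipid transfer protein, at 0.04 and Wipi1 at -0.04.

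The conjugation machinery, the enzymes that couple LC3 and GABARAP proteins to lipid, had the lowest median size of fold change of the 7 roles. None of its 6 genes was called or passed without adjustment, and the estimates ran from -0.05 to 0.11 on the log2 scale with a median size of 0.0255. Atg5, which is joined to ATG12 to form the enzyme that places LC3 on lipid, had the highest level of the group per kilobase of annotated exon. Per kilobase of the longest transcript, Atg3 (343 in CON) and Atg12 (283) stood above Atg5 (277). Atg5 ran from 689 through 755 to 786 normalized counts in CON and from 637 through 719 to 784 in PEA (log2 fold change -0.05, 95% interval -0.17 to 0.08). Atg7, the activating enzyme of both conjugation systems, had the largest estimate, with 726, 743 and 846 in CON and 713, 823 and 896 in PEA. CON replicate 2 alone held the upper end of its CON range (log2 fold change 0.11, 95% interval -0.02 to 0.24, adjusted p = 0.264). The transfer enzyme Atg3 was at 0.02, Atg12 at -0.02, and Atg16l1, which ties the enzyme to the membrane, at -0.03. Atg10, the transfer enzyme for ATG12, was the member with the fewest counts, and its estimate of 0.01 had a wider interval (-0.23 to 0.26).

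The ATG4 proteases trim newly made LC3 and GABARAP proteins so that they can be coupled, and later release them from lipid. None of the 4 was called by edgeR, and 2 were lower at an unadjusted p below 0.05, which 27.4% of all genes reached in either direction. Atg4a, the form with a preference for GABARAP proteins, ran from 222 through 290 to 312 normalized counts in CON and from 211 through 233 to 244 in PEA. All 6 PEA libraries lay under the CON median, and CON replicate 4, at 222, lay among the PEA libraries (log2 fold change -0.27, 95% interval -0.45 to -0.08, adjusted p = 0.0639). DESeq2 called Atg4a at an adjusted p of 0.0456, and edgeR did so without CON replicate 4 (0.0205). Atg4b, the main protease and the most abundant of the group per kilobase, ran from 1273 through 1328 to 1405 in CON and from 1200 through 1245 to 1293 in PEA. Of the PEA libraries, 5 lay under all CON libraries (log2 fold change -0.10, 95% interval -0.19 to -0.01, adjusted p = 0.141). Atg4c was at 0.01 and Atg4d at 0.05, both with intervals across 0.

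None of the 8 cargo receptors was called by edgeR over all libraries. Sqstm1, or p62, carries ubiquitinated proteins and is itself degraded with them. It was the most abundant receptor and ran from 19463 through 19958 to 21238 normalized counts in CON and from 18754 through 21748 to 22238 in PEA. The PEA libraries were more spread, with 4 above all CON libraries and 1 under them (log2 fold change 0.07, 95% interval -0.04 to 0.17, adjusted p = 0.419). Nbr1, a related receptor, was at 0.02 (95% interval -0.08 to 0.12), Optn, a receptor for damaged mitochondria and bacteria, at 0.10 (-0.04 to 0.25) and Tax1bp1, another ubiquitin-binding receptor, at 0.00 (-0.09 to 0.09). Calcoco1, a receptor for endoplasmic reticulum and Golgi, had 2144, 2677 and 2832 as its lowest, median and highest CON values and 2674, 2992 and 3110 in PEA. Of its PEA libraries 4 lay above all CON libraries (log2 fold change 0.18, 95% interval 0.04 to 0.32, adjusted p = 0.0780). Calcoco1 was called by edgeR without CON replicate 2 (adjusted p = 0.0352) or with a block for replicate number (0.0402).

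The receptors anchored in the mitochondrial outer membrane were not called over all libraries either. Bnip3, which is induced by low oxygen, ran from 1883 through 2214 to 3364 normalized counts in CON and from 1806 through 1939 to 2215 in PEA. The spread was widest in CON, where replicate 3 (3364) and replicate 6 (2757) stood above the other libraries, and the coefficient of variation was 22.5% in CON and 9.35% in PEA. The log2 fold change was -0.29 (SE 0.112, 95% interval -0.52 to -0.05, adjusted p = 0.105), and without CON replicate 3 it was -0.17. Over the libraries left out it ran from -0.35 to -0.17. Bnip3 was called by edgeR without CON replicate 2 (adjusted p = 0.0298) or with a block for replicate number (0.0414). Bnip3l, or NIX, the receptor that clears mitochondria from maturing red cells, was also highest in CON replicates 3 and 6 and had a log2 fold change of -0.15 (95% interval -0.29 to -0.02, adjusted p = 0.132), which was -0.09 without CON replicate 3. Bnip3l was called by edgeR without CON replicate 2 (adjusted p = 0.0418). Fundc1, the remaining mitochondrial receptor, was at -0.03 (95% interval -0.14 to 0.08). With 4 members above 0, 3 below and a median of 0.01, the receptors shared no direction.

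Levels between genes were compared per kilobase of exon. Only 3 members reached 1000 normalized counts per kilobase: Gabarap (3762 ± 116 in CON and 3402 ± 126 in PEA), Map1lc3a (3100 ± 284 and 2381 ± 176) and Sqstm1 (2453 ± 77.4 and 2565 ± 179, SD, n = 6 each). The order among them depended on the length used. Per kilobase of the longest transcript, Sqstm1 stood at 5108 ± 161 in CON and 5341 ± 374 in PEA, above Gabarap at 4814 ± 148 and 4353 ± 161 and Map1lc3a at 3522 ± 322 and 2706 ± 200, and the same 3 members passed 1000. At the other end stood Atg10 (33.2 ± 4.65 and 33.3 ± 3.29) and Atg4c (35.0 ± 6.26 and 35.2 ± 3.22), which did not differ beyond their spread. The most abundant messages thus encoded coupled proteins and a receptor, which are themselves partly degraded with the cargo. Nothing in the order rests on a test.

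**Figure D3:**
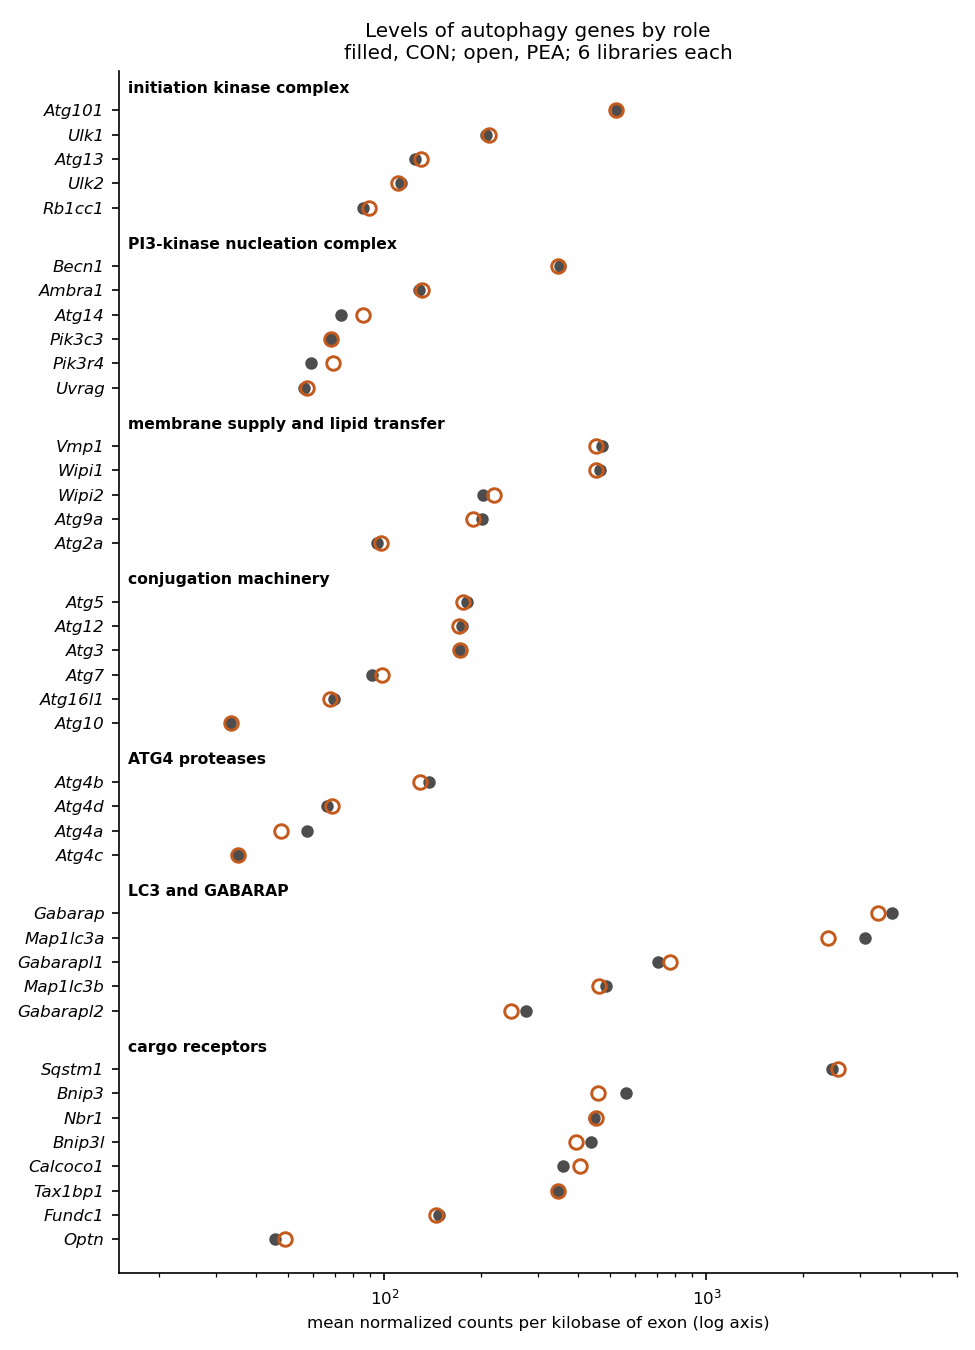
Mean normalized counts per kilobase of exon (horizontal log axis) of each member in CON (filled grey) and PEA (open orange), grouped by role, 6 libraries a group. Gabarap, Map1lc3a and Sqstm1 lie above 1000, most members lie between 50 and 600, and CON and PEA symbols overlap for most genes.

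Genes around this machinery were examined as 5 lists that hold no member. Of 82 listed genes, 81 were in the tables and tested, and 8 were called (4 higher and 4 lower), 9.88% beside the 11% of all genes. Their median log2 fold change was -0.00, and 13 were called without CON replicate 2 and 5 without CON replicate 3, CON replicate 6, PEA replicate 2 or PEA replicate 6. DESeq2 called 12, the additional genes being Prkaa2, a catalytic subunit of AMPK (log2 fold change -0.32, adjusted p = 0.0301 by DESeq2 and 0.0514 by edgeR), Ncoa4 (0.0374 by DESeq2), Trp53inp1 (0.0367 by DESeq2) and Snap29. Prkaa2 was also called by limma-voom and with median-ratio factors. Among 26 regulators of mTORC1 and AMPK, the kinases that restrain and start autophagy, Ddit4l and Sesn2 rose and Rragc fell. Ddit4l, an inhibitor of mTORC1 abundant in muscle, went from 172 ± 19.7 to 259 ± 37.0 normalized counts without overlap of the libraries (log2 fold change 0.59, adjusted p = 0.0035). Sesn2, a leucine sensor that acts on the same kinase and is induced by amino acid stress, went from 1233 ± 223 to 1741 ± 240 (log2 fold change 0.50, adjusted p = 0.00961). Rragc, a GTPase that brings mTORC1 to the lysosome, went from 2952 ± 197 to 2615 ± 87.8, again without overlap (log2 fold change -0.17, adjusted p = 0.0298), and shares 600 bases of exon with a non-coding gene on the opposite strand. Its call was lost without CON replicate 3, 5 or 6 or PEA replicate 1, 2 or 6 (adjusted p up to 0.0683).

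Among 16 other autophagosome genes, Atg9b rose and Trp53inp2 fell. Atg9b, the paralog of Atg9a, went from 186 ± 30.7 to 257 ± 26.0 normalized counts (log2 fold change 0.48, adjusted p = 0.0143). Its exons share 297 bases with Nos3 on the opposite strand. Trp53inp2, or DOR, an LC3-binding protein enriched in muscle, ran from 3434 through 4135 to 4411 in CON and from 2855 through 3133 to 3456 in PEA. Of the PEA libraries, 5 lay under all CON libraries, and its log2 fold change of -0.39 (SE 0.062, adjusted p = 0.00139) was close in size to that of Map1lc3a. Among 19 other genes of selective autophagy, Stbd1, a receptor for glycogen, rose (1013 ± 186 to 1346 ± 152, log2 fold change 0.41, adjusted p = 0.0160). Phb2, an inner mitochondrial membrane receptor (log2 fold change -0.15, adjusted p = 0.0363), and Retreg1, a receptor for endoplasmic reticulum (-0.16, adjusted p = 0.0293), fell. The exons of Phb2 share 443 bases with the gene Gm15884 on the opposite strand. The call of Phb2 was lost without CON replicate 1, 3, 5 or 6 or PEA replicate 2, 3, 4, 5 or 6 (adjusted p up to 0.0900). That of Retreg1 was lost without CON replicate 3 or 6 or PEA replicate 2, 4, 5 or 6 (up to 0.0679).

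None of the 6 transcription factors of the MiT and FoxO families, which drive many autophagy genes, was called by edgeR or DESeq2. Their estimates were above 0 for 5 and below 0 for 1. At an unadjusted p below 0.05 there were 2, both higher, 33.3% beside 27.4% of all genes in either direction. These were Tfe3 (log2 fold change 0.13, 95% interval 0.03 to 0.22, adjusted p = 0.0844 by edgeR) and Foxo1 (0.21, 0.02 to 0.40, adjusted p = 0.136 by edgeR). Tfeb was at 0.00 (95% interval -0.17 to 0.17) and Foxo3 at 0.00 (-0.11 to 0.11). Of 14 genes that fuse the autophagosome with the lysosome, none was called by edgeR, 5 had an unadjusted p below 0.05, beside 27.4% of all genes, and DESeq2 called 1, Snap29 (log2 fold change -0.19, adjusted p = 0.0418 by DESeq2). Vamp7 of this list was not analysed here.

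Promoter windows were searched for short motifs chosen once the expression values were known, on both strands. RefSeq's table held 38 windows for 32 of the 39 members. CACGTG, the core of the element bound by TFEB and its relatives, stood in 5 member windows (13.2%) beside 7.15% of all 32851 windows, and these belonged to Atg14, Atg3, Atg5, Atg7 and Bnip3. ACGTG, which is contained in CACGTG, stood in 15 member windows (39.5%) beside 19.6% of all. The member windows were richer in G and C, with a median of 59.7% beside 52.7%, and the part of base composition in these shares was not tested. Neither TGTTTAC, a FoxO element found in 3.65% of all windows, nor TGATGCAA, an ATF4 element found in 0.895%, occurred in a member window. The genes with CACGTG had log2 fold changes from -0.29 (Bnip3) to 0.24 (Atg14), and none of them was called by edgeR over all libraries.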

How the data were processed

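RNA-seq was performed on 12 libraries of C2C12 myotubes, 6 CON and 6 PEA, with conditions taken from the labels. The labels hold 13 entries, since PEA replicate 2 was sequenced again and both entries share 1 set of counts, taken as 1 library. According to the submitters' processing notes, the authors aligned reads to mm39 with STAR 4.4.1d and quantified Ensembl genes in Partek. They deposited an estimated count per gene and library, without normalization. They also deposited a signal table, called normalized counts here, in which each library's estimated counts are divided by 1 factor (DESeq2 median ratio). Fractional values made up 70.2% of the nonzero estimated counts, and counts were rounded before testing. No gene had a total under 10. Symbols, GRCm39 positions and exon lengths came from the GENCODE annotation, and 16343 of 16382 genes had a symbol.

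Groups were compared across all genes with edgeR 4.0.16 (quasi-likelihood test, TMM, filterByExpr) under R 4.3.3, with Benjamini-Hochberg adjustment over 13142 genes and a threshold of 0.05. TMM factors were 0.988 to 1.017, the log2 fold changes of all genes had a median of 0.005 and the common coefficient of variation 0.106. A log2 fold change is PEA against CON. The scripts were tested on simulated data. For ratios of related genes, log2 normalized counts were used in an exact permutation test (two-sided). Alternatives used DESeq2 1.42.0, limma 3.58.1, median-ratio factors, other filters, unrounded counts, the deposited normalized counts as log2 with a pseudocount of 1, a block for replicate number, each library left out and an adjusted p below 0.01. Figures and tables were made in Python 3.11.15.

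All members are named. Values are given in full for called members and, in each role, for the member with the highest level per kilobase and that with the largest fold change, and listed pathway genes are named where called. Genes named beyond this were chosen after their values were seen. The members and lists were chosen with earlier results of these data known. Intervals reflect counting error and library spread and no other error.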

Additional observations from a re-analysis of the deposited data

Results flagged for a closer look

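Of 90 groups of 6 values checked for a library far from the other 5, 9 had one, where chance gives about 4.5. The largest by its share of the range was the depth of CON replicate 1, at 50397444 estimated counts where the other CON libraries had 12354845 to 19083862.

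The other 8 were normalized counts of members that were not called. CON replicate 2 was high for Atg101 (1272, others 1055 to 1106), Atg2a (993, others 837 to 888) and Atg7 (846, others 726 to 756). PEA replicate 4 was high for Rb1cc1 (1548, others 1382 to 1443) and Atg4c (422, others 327 to 360). PEA replicate 1 was low for Wipi2 (2134, others 2350 to 2474) and Nbr1 (3334, others 3543 to 3639), and PEA replicate 3 was low for Uvrag (816, others 1011 to 1090). CON replicate 2 also had the highest Mki67 of the CON libraries, 983 beside 209 to 465 in the other 5.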

How the results depend on the processing

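Map1lc3a was called under every fit run. The count of 3 called members was 3 or 4 under DESeq2, limma-voom, median-ratio factors, other filters, unrounded counts and the deposited normalized counts, and 1 (Map1lc3a) at an adjusted p below 0.01. With libraries left out it ran from 1 (without PEA replicate 5, Map1lc3a) to 8 (without CON replicate 2, which added Atg14, Bnip3, Bnip3l, Calcoco1 and Gabarapl1), and it was 5 without PEA replicate 1. The 8 called pathway genes became 3 at an adjusted p below 0.01 and ran from 5 (without CON replicate 3, CON replicate 6, PEA replicate 2 or PEA replicate 6) to 13 (without CON replicate 2). The cause was not tested, and over all genes the count ran from 778 to 2203.

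Libraries with the same number did not vary together (correlations of -0.083 to 0.065, no library closest to its own number). With the replicate block 4 members were called (Bnip3, Calcoco1, Map1lc3a and Pik3r4) and 8 pathway genes, with Ncoa4 in place of Phb2 (adjusted p = 0.0532). The call of Gabarap was lost with that block (adjusted p = 0.0561 by edgeR). The ratio of Map1lc3b to Map1lc3a was 0.31 with the replicate block, where only 64 assignments exist (adjusted p = 0.0781 by exact permutation), and 0.28 for medians (0.0649). The ratio of Gabarapl1 to Gabarapl2 ran from 0.22 to 0.35 with libraries left out.

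Uncalled estimates that changed sign with a library left out were Ulk2 (-0.0653 to 0.0202), Atg3 (-0.0031 to 0.0318), Atg10 (-0.0391 to 0.0695), Atg4c (-0.0469 to 0.094) and Nbr1 (-0.0089 to 0.0447). The 3 genes with estimates nearest 0 over all libraries did so as well, Atg101 (-0.034 to 0.0401), Pik3c3 (-0.0434 to 0.0267) and Tax1bp1 (-0.0157 to 0.0176).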

Other observations

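Bnip3 and Bnip3l, which encode mitochondrial receptors known to respond to low oxygen, were highest in the same CON libraries, replicate 3 (3364 and 2901 normalized counts) and replicate 6 (2757 and 2620). A list of 20 other genes known to respond to low oxygen was therefore examined, chosen after these values were seen. Among the CON libraries, replicate 3 had the highest value for 17 of the 20, beside 21.9% of all genes tested, and for 13 of the 20 replicate 3 was highest and replicate 6 next. The level in CON replicate 3 divided by the CON median had a median of 1.24 over the list and 1.00 over all genes. Examples were Pdk1, a kinase that limits pyruvate entry into mitochondria (2713 in CON replicate 3, CON median 2018), Ndrg1 (4688, median 3451), Ankrd37 (135, median 90.8) and Ldha, lactate dehydrogenase (34961, median 27682). Egln3, Bhlhe40 and Hk2 were highest in other CON libraries. Between the groups, 4 of the 20 fell in PEA (Egln3, Ndrg1, P4ha1 and Aldoa, adjusted p 0.0170, 0.0316, 0.0478 and 0.0242 by edgeR) and none rose, beside 4.74% of all genes called lower. For these 4, the level in CON replicate 3 divided by the CON median was 0.896, 1.36, 1.05 and 1.09 in that order. CON replicates 3 and 6 were also low in myotube markers. CON replicate 3 was the lowest CON library for 10 of the 12 myotube markers, with replicate 6 next for 7 of them, and the marker sums were 142185 and 167163 beside 173930 or more in the other CON libraries. Their sums of myoblast and cell cycle markers, 3230 and 4039, were also the lowest in CON. The labels name no oxygen condition, and the part of these markers in the pattern was not tested.

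Map1lc3a lies on mouse chromosome 2 near Trp53inp2, another gene of the pathway that fell, with 102980 bases between them (GRCm39). Their log2 fold changes were -0.38 and -0.39, while their levels differed, at 3100 and 465 normalized counts per kilobase of exon in CON. The genes tested within 250 kb of Map1lc3a were therefore examined, a choice made after these values were seen. Of 8 such genes, 2 were called. Trp53inp2 prompted the search, so its call was fixed in advance. Dynlrb1, a dynein light chain, was the only other (log2 fold change -0.16, adjusted p = 0.0214 by edgeR), where 11% of all genes were called. Pigu, which lies between Map1lc3a and Trp53inp2 with its nearer end 145 bases from Map1lc3a, was at 0.04 (95% interval -0.07 to 0.15). Ncoa6, which overlaps the end of Trp53inp2 on the opposite strand, was at 0.12 (adjusted p = 0.165).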
